A study of Mus musculus with 10 samples.

Results

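The genes described here encode proteases that degrade cartilage matrix and the inhibitors that restrain them: Adamts1, Adamts4, Adamts5, Mmp2, Mmp3, Mmp14 and Htra1 on the protease side, and Timp1, Timp2 and Timp3 on the inhibitor side. The rule names the genes and uses no measured value, but the list was drawn up with earlier results of these data known. They make up 10 of the 35757 genes with a value. RNA was sequenced from medial knee cartilage caps dissected from 10 mice, 5 wild-type controls and 5 mice null for the microRNA gene Mir324, with 1 library per mouse and no treatment. The study, as its title states, concerned the role of miR-324 in bone-forming and bone-resorbing cells. The age, sex, strain and litter of the mice, the nature of the null allele and the sequencing batch are not given in the sources used here. Values are in TPM, a relative abundance that allows for transcript length and sums to 1000000 in each library, added up per gene.

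Cartilage owes its stiffness to the proteoglycan aggrecan held in a network of type II collagen. Aggrecanases of the ADAMTS family and matrix metalloproteinases (MMPs) cut these components, and the secreted serine protease HTRA1 cuts fibronectin and other matrix proteins. Tissue inhibitors of metalloproteinases (TIMPs) block the active site of these zinc enzymes, TIMP3 being the member that also blocks aggrecanases well, while TIMP2 has a second role in bringing the precursor of MMP2 to MMP14 at the cell surface, where it is activated.

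Mir324 yields a mature strand from each arm of its hairpin, and a microRNA recognises messenger RNAs mainly through its seed, bases 2 to 8. The 2 strands are shown because they are the product of the gene labelled null, with the seed in capitals; loss of Mir324 was not checked in these data. They lie on the plus strand of chromosome 11 in GRCm38.p6, at chr11:70012060-70012082 and chr11:70012095-70012114, and the sequences are from RefSeq.
miR-324-5p: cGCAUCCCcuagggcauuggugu
miR-324-3p: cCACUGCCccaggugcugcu

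The longest annotated 3′ UTR of each gene was searched on the sense strand for GGGATGC, the match to the 5p seed, and GGCAGTG, the match to the 3p seed. Mmp2 was the only one of the 10 genes with a match to both, Adamts4 and Adamts5 each had 1 match to the 3p seed, and the other 7 had neither. Among 12601 genes with a 3′ UTR, of median length 1149 bases, 8.50% held GGGATGC and 15.4% held GGCAGTG. The matches are shown in capitals with 10 bases on each side, on the strand of the gene, at chr1:171259356-171259362 for Adamts4, chr16:85860052-85860058 for Adamts5, and chr8:92852879-92852885 and chr8:92853043-92853049 for Mmp2 (GRCm38).
Adamts4, 3p match: tgccctgggaGGCAGTGatgtcttggt
Adamts5, 3p match: aacagaacaaGGCAGTGctctggttac
Mmp2, 5p match: cccaccctagGGGATGCttggatattt
Mmp2, 3p match: cctggcatggGGCAGTGgggtacaggt
Only the Adamts4 match is followed by an A. Both mature strands begin with a C, so this A does not extend the pairing. The 3′ UTR of Mmp3, 285 bases long, held neither match. A match is a description of the sequence and not evidence of a working site. Mean levels were lower in null mice for 3 of 3 genes with a match and 6 of 7 without one, beside 60% of all genes tested. Adamts4, counted among the genes with a match, was too low for the limma test. A relation of matches to the changes was not tested.

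The libraries held RNA of more than chondrocytes. Haemoglobin genes took 11.2% to 26.2% of TPM. Of 11 listed chondrocyte markers, Col2a1, Acan, Comp and Col11a1 averaged 91.4, 146, 235 and 77.1 TPM in wild-type mice. Hapln1, Col9a2, Sox9 and Cnmd averaged 22.0, 12.6, 10.1 and 6.99 TPM in the same mice. Matn1, Matn3 and Col9a1, also on the list, stayed under 1 TPM in every library. Read depth cannot be recovered from TPM; the number of genes at 1 TPM or more was 13391 to 14307. The library of wild-type mouse 1 stood apart on the first principal component (26.7% of the variance), at -54.8 against -12.2 to 30.2 for the other 9. Several results are therefore given with and without it, but the counts of markers at an unadjusted p under 0.05 only with it. Across all 13846 genes tested, 0% passed an adjusted p of 0.05 by limma with Benjamini-Hochberg adjustment, and 11.6% (1603) had an unadjusted p under 0.05, 1011 of them lower in null mice and 592 (4.28%) higher. This split depended on scaling: it was 884 lower and 876 higher after median ratio scaling, and 591 lower and 1227 higher when TPM was rescaled without haemoglobin genes.

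The 10 genes spanned a wide range of abundance, and the 3 Adamts genes and Mmp3 were the lowest. Mean TPM over the 10 libraries was 121 for Timp2, 94.1 for Htra1, 90.2 for Timp3, 54.0 for Mmp2, 51.6 for Mmp14, 33.4 for Timp1, 4.22 for Adamts5, 2.25 for Adamts1, 1.58 for Mmp3 and 0.784 for Adamts4. Neighbours in this order were compared within each library by a two-sided exact sign-flip test of the log2 ratio of TPM + 1, adjusted over the 9 pairs, for which the smallest raw p is 0.00195. Timp3 exceeded Mmp2, Mmp14 exceeded Timp1, Timp1 exceeded Adamts5 and Adamts5 exceeded Adamts1 in 10 of 10 libraries (adjusted p = 0.0044 each, exact test), and Timp2 exceeded Htra1 in 8 of 10 (adjusted p = 0.014, exact test). Htra1 and Timp3 were not told apart (adjusted p = 0.887, exact test), nor were Mmp2 and Mmp14 (adjusted p = 0.885, exact test). The position of Mmp3 was not the same in the genotypes, a difference that was not tested: Adamts1 exceeded it in 5 of 5 wild-type but 2 of 5 null libraries, and it exceeded Adamts4 in 1 of 5 wild-type and 5 of 5 null libraries.

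In the comparison of genotypes, 9 of the 10 genes reached the mean of 1 TPM required for testing, Adamts4 being the one that did not, and none passed the adjusted threshold. By unadjusted p under 0.05, Mmp3 was higher and Mmp14 lower in null mice, 2 genes beside a background of 11.6% of all genes (4.28% higher and 7.3% lower). The mean was lower in null mice for 8 of the 9, where 60% of all genes tested were lower, and their median change in log2(TPM + 1) was -0.35 against -0.05 for all genes. Mmp3 was the only one whose genotypes did not overlap, beside 1.94% of all genes in either direction and 0.881% in the direction higher in null mice. RNA of a whole tissue piece cannot tell fewer cells of a type from less RNA per cell.

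**Figure D1:**
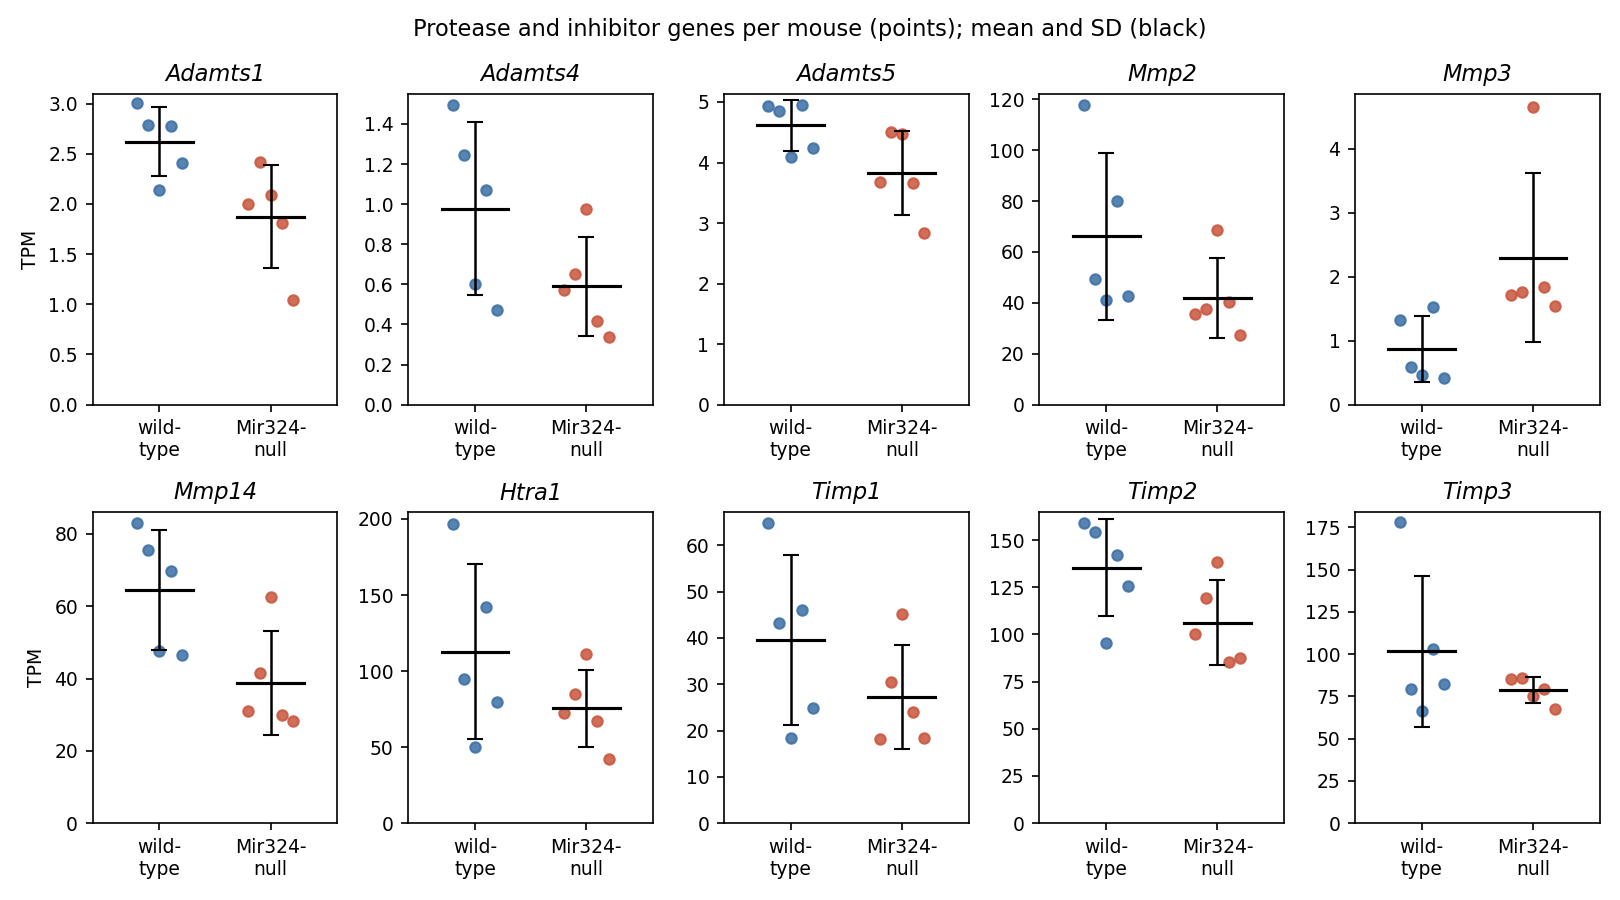
TPM of each gene (y axis, starting at 0, a separate scale per panel) in the 5 wild-type and 5 Mir324-null mice; each point is 1 mouse, and black lines and bars give the mean and SD. Mmp3 is the one panel in which every null mouse lies above every wild-type mouse, and wild-type mouse 1 (leftmost wild-type point) is the highest point in panels that include Mmp2, Htra1, Timp1 and Timp3.

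Of the aggrecanases, Adamts5 (ENSMUSG00000022894), regarded as a main aggrecanase of mouse cartilage, was the most abundant. It read 4.94, 4.85, 4.08, 4.96 and 4.24 TPM in wild-type mice 1 to 5 and 3.67, 4.50, 4.46, 3.66 and 2.84 TPM in null mice 1 to 5. The genotypes overlapped, with 3 null mice below every wild-type mouse. Its mean was 4.61 ± 0.418 TPM (SD, n = 5) in wild-type and 3.83 ± 0.687 TPM (SD, n = 5) in null mice, a change of -0.23 on the log2(TPM + 1) scale (SE 0.132, limma unadjusted p = 0.113, adjusted p = 0.554). Folds on this scale understate the change of low genes.

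Adamts1 (ENSMUSG00000022893), a protease of aggrecan and versican, lies beside Adamts5 on the minus strand of chromosome 16 (GRCm38, Adamts1 at 85793827 to 85803113 and Adamts5 at 85856173 to 85901828, 53.06 kb apart). It read 3.0, 2.79, 2.14, 2.77 and 2.41 TPM in wild-type mice 1 to 5 and 2.0, 2.42, 2.08, 1.81 and 1.04 TPM in null mice 1 to 5. Only null mouse 2 reached the wild-type range. The mean was 2.62 ± 0.345 TPM (SD, n = 5) against 1.87 ± 0.513 TPM (SD, n = 5), a log2 change of -0.35 (SE 0.162, limma unadjusted p = 0.0515, adjusted p = 0.436; exact permutation p = 0.0238). Without null mouse 5 the change was -0.23, and for Adamts5 -0.15. Without wild-type mouse 1 the Adamts1 change was -0.31 (limma unadjusted p = 0.096).

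Adamts4 (ENSMUSG00000006403, chromosome 1, 171250421 to 171260637, plus strand), an aggrecanase that cytokines induce in cartilage, was near the limit of this table. Its level was 1.49, 1.25, 0.60, 1.07 and 0.475 TPM in wild-type mice 1 to 5 and 0.572, 0.652, 0.973, 0.417 and 0.337 TPM in null mice 1 to 5. The genotypes overlapped, and the difference of -0.30 was not past the exact permutation test (p = 0.111).

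Among the metalloproteinases, Mmp14 and Mmp2 were the abundant pair. Mmp14 (ENSMUSG00000000957, chromosome 14, 54431612 to 54445364, plus strand) encodes a membrane-bound collagenase. It read 83.1, 75.6, 47.6, 69.9 and 46.4 TPM in wild-type mice 1 to 5 and 31.0, 41.7, 62.6, 29.9 and 28.3 TPM in null mice 1 to 5. Null mouse 3 was the only null mouse inside the wild-type range. The mean was 64.5 ± 16.7 TPM (SD, n = 5) in wild-type and 38.7 ± 14.3 TPM (SD, n = 5) in null mice, a log2 change of -0.75 (95% interval -1.26 to -0.24, limma unadjusted p = 0.0078, adjusted p = 0.319; exact permutation p = 0.0317).

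Mmp2 (ENSMUSG00000031740, chromosome 8, 92827291 to 92853420, plus strand) encodes a gelatinase that MMP14 activates. Its level was 118, 49.4, 41.1, 80.2 and 42.6 TPM in wild-type mice 1 to 5 and 35.5, 37.5, 68.6, 40.2 and 27.3 TPM in null mice 1 to 5. The genotypes overlapped, with wild-type mouse 1 the highest of the 10. The mean was 66.2 ± 32.9 TPM (SD, n = 5) against 41.8 ± 15.7 TPM (SD, n = 5), a log2 change of -0.59 (SE 0.306, limma unadjusted p = 0.077, adjusted p = 0.490) that was -0.36 without wild-type mouse 1.

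Mmp3 (ENSMUSG00000043613, chromosome 9, 7445822 to 7455975, plus strand) encodes stromelysin-1, which cuts proteoglycans and activates other MMP precursors. It read 1.32, 0.595, 0.470, 1.52 and 0.422 TPM in wild-type mice 1 to 5 and 1.71, 1.75, 4.65, 1.84 and 1.54 TPM in null mice 1 to 5. Every null mouse was above every wild-type mouse, by a narrow margin between null mouse 5 and wild-type mouse 4, and null mouse 3 was far above the other 4. The mean was 0.866 ± 0.516 TPM (SD, n = 5) in wild-type and 2.30 ± 1.32 TPM (SD, n = 5) in null mice, a log2 change of 0.79 (95% interval 0.23 to 1.36, limma unadjusted p = 0.010, adjusted p = 0.325; exact permutation p = 0.00794, the smallest that 252 splits can give). It reached the expression filter through its null level; in the fit with no filter the unadjusted p was 0.012 and the adjusted p 0.50. Without null mouse 3 the change was 0.58 (unadjusted p = 0.019).

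**Figure D2:**
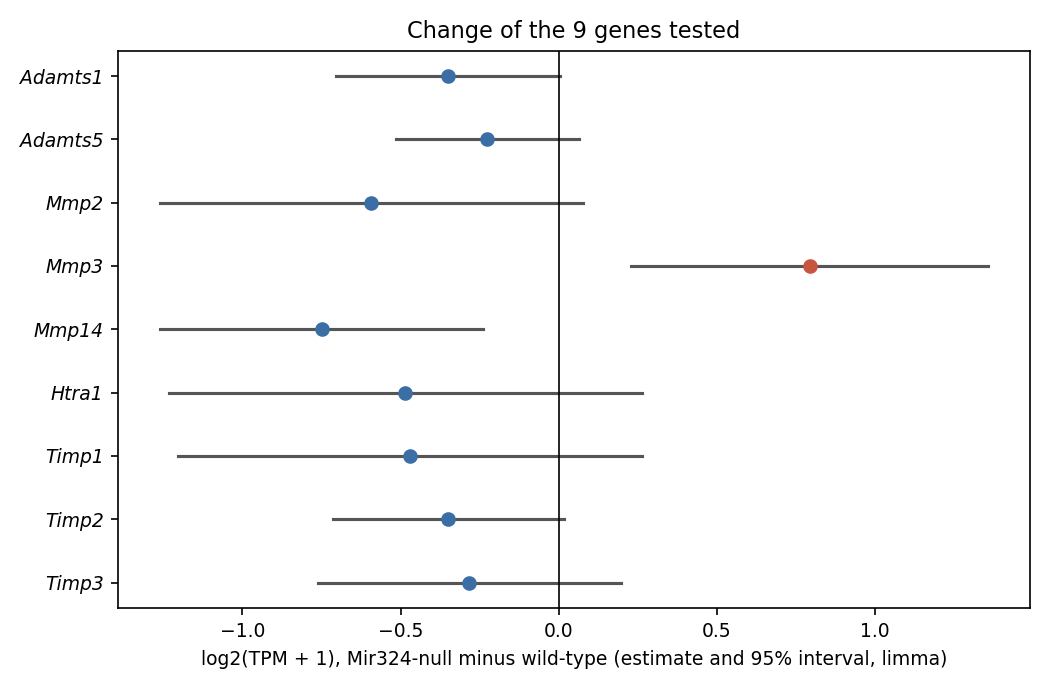
Estimated change of the 9 tested genes in log2(TPM + 1), Mir324-null minus wild-type (x axis), with the 95% interval from limma as a line. Mmp3 lies above 0 at 0.79 and Mmp14 below 0 at -0.75 with intervals that leave out 0, and the intervals of the other 7 include 0.

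Mmp3 sits in a cluster of 9 protein-coding MMP genes on chromosome 9. Mmp13, the collagenase of hypertrophic chondrocytes and osteoblasts, lies upstream of it at 7272514 to 7283331 and averaged 162 ± 44.6 TPM (SD, n = 5) in wild-type mice, against 74.9 ± 30.7 TPM (SD, n = 5) in null mice. Every null mouse was below every wild-type mouse, with a log2 change of -1.15 (SE 0.274, limma unadjusted p = 0.0013, adjusted p = 0.278). The neutrophil collagenase gene Mmp8 read 257 and 261 TPM (log2 change 0.15, and -0.073 without wild-type mouse 1), the macrophage elastase gene Mmp12 1.11 and 1.34 TPM, Mmp27 1.02 and 0.792 TPM, and the stromelysin-2 gene Mmp10 0.041 and 0.047 TPM, wild-type first. Mmp1b and Mmp7 were listed at 0 throughout.

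The RefSeq promoter windows, 250 bases before to 50 after the start, were available for 7 of the 10 genes and were searched on both strands for the AP-1 motif TGAGTCA and the variant TGAGTAA. The first was found in the Mmp3 window alone among the 7, 46 bases before the start, at chr9:7445776-7445782 (GRCm38.p6), and in 5.20% of 32851 promoters. The second was found in the Timp1 window alone, 26 bases after the start, at chrX:20870192-20870198, and in 2.68% of promoters. They are shown, motif in capitals, because AP-1 sites in these genes are well known from other work; no binding was measured here.
Mmp3: ggaagcaattaTGAGTCAgttttcgggtg
Timp1: cggtgggtggaTGAGTAAtgcgtccagga

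The serine protease gene Htra1 (ENSMUSG00000006205, chromosome 7, 130936111 to 130985660, plus strand) had the highest TPM of the 7 protease genes when all its transcripts were summed; its coding transcript alone averaged 28.0 TPM in wild-type mice, against 61.4 TPM for coding transcripts of Mmp14 and 56.2 TPM for those of Mmp2. It read 197, 94.5, 50.3, 142 and 79.6 TPM in wild-type mice 1 to 5 and 72.3, 85.1, 111, 67.1 and 42.1 TPM in null mice 1 to 5. The ranges overlapped over most of their length, and wild-type mouse 1 was again the highest. The log2 change of -0.49 (SE 0.342, limma unadjusted p = 0.182, adjusted p = 0.641) was -0.25 without wild-type mouse 1, -0.30 without null mouse 5 and -0.73 without wild-type mouse 3. Htra1 lies within the annotated span of Fgfr2 on the opposite strand (41.5 TPM); whether the quantification used strand is not given in the sources used here.

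Of the inhibitors, Timp2 (ENSMUSG00000017466, chromosome 11, 118301069 to 118355740, minus strand) was the most abundant. It read 159, 154, 95.5, 142 and 126 TPM in wild-type mice 1 to 5 and 100, 119, 138, 85.2 and 87.5 TPM in null mice 1 to 5. The genotypes overlapped, null mice 4 and 5 lying below the wild-type range. Its mean was 135 ± 25.7 TPM (SD, n = 5) against 106 ± 22.6 TPM (SD, n = 5), a log2 change of -0.35 (SE 0.167, limma unadjusted p = 0.0588, adjusted p = 0.450). Without wild-type mouse 1, again the highest, the change was -0.29 (limma unadjusted p = 0.128).

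Timp3 (ENSMUSG00000020044, chromosome 10, 86300372 to 86349506, plus strand), whose protein binds to the matrix, read 178, 79.3, 66.1, 103 and 82.1 TPM in wild-type mice 1 to 5 and 85.3, 85.6, 75.2, 79.2 and 67.5 TPM in null mice 1 to 5. All null mice were inside the wild-type range. The log2 change was -0.28 (SE 0.219, limma unadjusted p = 0.221, adjusted p = 0.684) and -0.06 without wild-type mouse 1. The coefficient of variation was 43.9% in wild-type mice, 18.6% in the 4 left without wild-type mouse 1, and 9.65% in null mice.

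Timp1 (ENSMUSG00000001131, chromosome X, 20870166 to 20874735, plus strand), the inducible inhibitor, read 64.7, 43.3, 18.4, 46.1 and 24.9 TPM in wild-type mice 1 to 5 and 18.2, 30.5, 45.1, 23.9 and 18.3 TPM in null mice 1 to 5. Its genotypes overlapped widely. The log2 change of -0.47 (SE 0.336, limma unadjusted p = 0.187, adjusted p = 0.648) was -0.26 without wild-type mouse 1. Timp1 and Timp3 lie inside the synapsin genes Syn1 and Syn3 on the opposite strand, which averaged 0.879 and 0.220 TPM.

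The balance of inhibitors to metalloproteases was described by the summed TPM of the 3 Timp genes over that of the 6 Adamts and Mmp genes. Mmp2 and Mmp14 made up 89.3% to 94.9% of the second sum, so the ratio reads mainly these genes. It was 1.90, 2.06, 1.88, 1.82 and 2.41 in wild-type mice 1 to 5 and 2.74, 2.66, 1.80, 2.42 and 2.82 in null mice 1 to 5, or 2.01 ± 0.241 against 2.49 ± 0.412 (SD, n = 5 each). Both sums were lower on average in null mice, the inhibitors at 277 ± 82.3 against 212 ± 34.8 TPM and the metalloproteases at 140 ± 48.5 against 89.1 ± 31.8 TPM (SD, n = 5 each). Wild-type mouse 1 had the highest of both sums, 402 and 212 TPM. The other wild-type mice ran from 180 to 291 TPM for the inhibitors and from 96.0 to 160 TPM for the metalloproteases. In this ratio 4 of the 5 null mice were above every wild-type mouse and null mouse 3 was below all of them. The margin was narrow for null mouse 4, at 2.419 against 2.412 in wild-type mouse 5. It was also narrow for null mouse 3, at 1.804 against 1.816 in wild-type mouse 4. No test was made of this ratio over chosen genes.

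Spread between mice of one genotype separated the genes as well. On the log2(TPM + 1) scale the SD within genotype of Htra1, Timp1 and Mmp2 exceeded that of 95.1%, 94.9% and 93.7% of all genes tested, whereas for Adamts1 and Adamts5 the figures were 43.9% and 22.2%. Wild-type mouse 1 was the highest mouse for Htra1, Timp1 and Mmp2. Without it their wild-type coefficients of variation of TPM fell from 51.1% to 41.9%, 46.6% to 41.1% and 49.7% to 34.3%. The ranking among all genes was not repeated without it. The ratio of the highest to the lowest mouse ran from 1.75 for Adamts5 to 11 for Mmp3.

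Most pairs of the genes other than Mmp3 varied together from mouse to mouse; Timp3 had the fewest pairs past the threshold. Of 45 pairs, 33 had an adjusted p under 0.05 (permutation test of Pearson r of log2(TPM + 1), 100000 resamples, adjusted over the 45), all among the 36 pairs without Mmp3, whose median r was 0.833 and lowest r 0.551. The highest was Adamts1 with Adamts5 (r = 0.96, adjusted permutation p = 0.0009; rho = 0.93, adjusted permutation p = 0.0033; r = 0.90 without the 2 mice farthest from the median of Adamts1). By Spearman rho 29 of the 36 had an adjusted permutation p under 0.05. Timp3 paired with Mmp2, Timp1, Adamts4 and Timp2 passed by r but not by rho, and r without the 2 farthest mice, wild-type mice 1 and 4, was 0.12 for Mmp2 with Timp3 (0.80 with all) and 0.29 for Timp1 with Timp3 (0.71 with all). The median over these 36 pairs was 0.794 without wild-type mouse 1 and 0.810 after the mean of each genotype was subtracted, with 29 of 36 then at an adjusted p under 0.05. The genes share a library and its fixed total, and the part of the haemoglobin share in these correlations was not tested. After median ratio scaling the median was 0.774. The share of pairs among all genes tested that would pass, over all mice or within genotype, was not computed. These counts therefore cannot be read as particular to the protease and inhibitor genes.

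**Figure D3:**
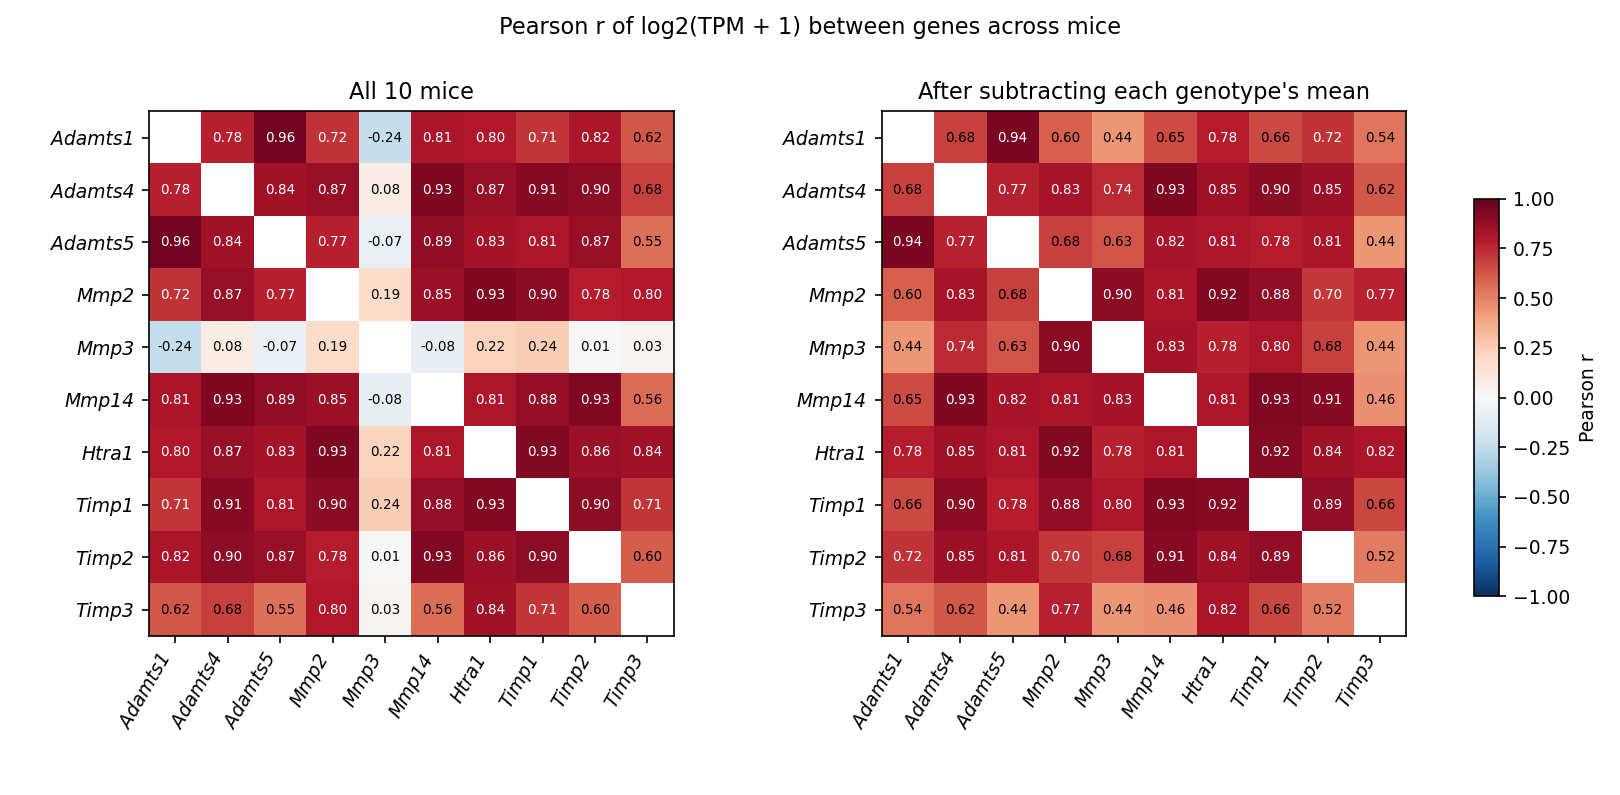
Pearson r of log2(TPM + 1) for each pair of genes over all 10 mice (left) and after subtracting the mean of each genotype (right); colour runs from -1 (blue) to 1 (red). The row of Mmp3 runs from -0.24 to 0.24 on the left and from 0.44 to 0.90 on the right.

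Mmp3 varied with most of the other genes once genotype means were subtracted. Its r with the other 9 genes ran from -0.24 to 0.24 over all 10 mice, and from 0.44 to 0.90 after the mean of each genotype was subtracted, when 6 of 9 pairs had an adjusted permutation p under 0.05. With Mmp2 the within-genotype r was 0.90 (adjusted permutation p = 0.014; rho = 0.88, adjusted permutation p = 0.016; r = 0.89 without the 2 mice farthest from the median), and it was 0.90 without null mouse 3. The pairs with Timp3, Adamts1 and Adamts5 did not pass. Without null mouse 3 the within-genotype r of the 9 pairs ran from 0.43 with Adamts1 to 0.90 with Mmp2. It fell for Mmp14 (0.83 to 0.69), Timp2 (0.68 to 0.53) and Adamts5 (0.63 to 0.52), among others. It rose for Timp3 (0.44 to 0.70) and Htra1 (0.78 to 0.80). Subtracting genotype means was chosen after the data had been seen.

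Set against each of the other genes in the same library, Mmp3 was separated further between genotypes than by its own TPM. As a percent of Mmp2 it was 1.12, 1.21, 1.15, 1.90 and 0.990 in wild-type mice 1 to 5 and 4.82, 4.68, 6.77, 4.59 and 5.65 in null mice 1 to 5. The lowest null mouse was thus 2.42 times the highest wild-type mouse, and null mouse 3 was still the highest. As a percent of Mmp14 it ran from 0.787 to 2.18 in wild-type and from 4.21 to 7.43 in null mice, and of Timp1 from 1.37 to 3.30 and from 5.75 to 10.3. The genotypes did not overlap against any of the 9 genes, the narrowest gap being 1.27 times, against Adamts5. The 9 percents are not separate results. All share Mmp3, whose own levels did not overlap, and each of the 9 genes had a lower mean in null mice, which widens the separation. How many other genes would separate in this way was not examined. Null mouse 3 stood far out against some of them, at 6.18% of Timp3 where the other null mice ran from 2.0% to 2.33%, and at 104% of Adamts5 where they ran from 39.0% to 54.4%. These percents were chosen after the values were seen and carry no test; because both parts of a percent come from one library, a factor that scales the whole library cancels.

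**Figure D4:**
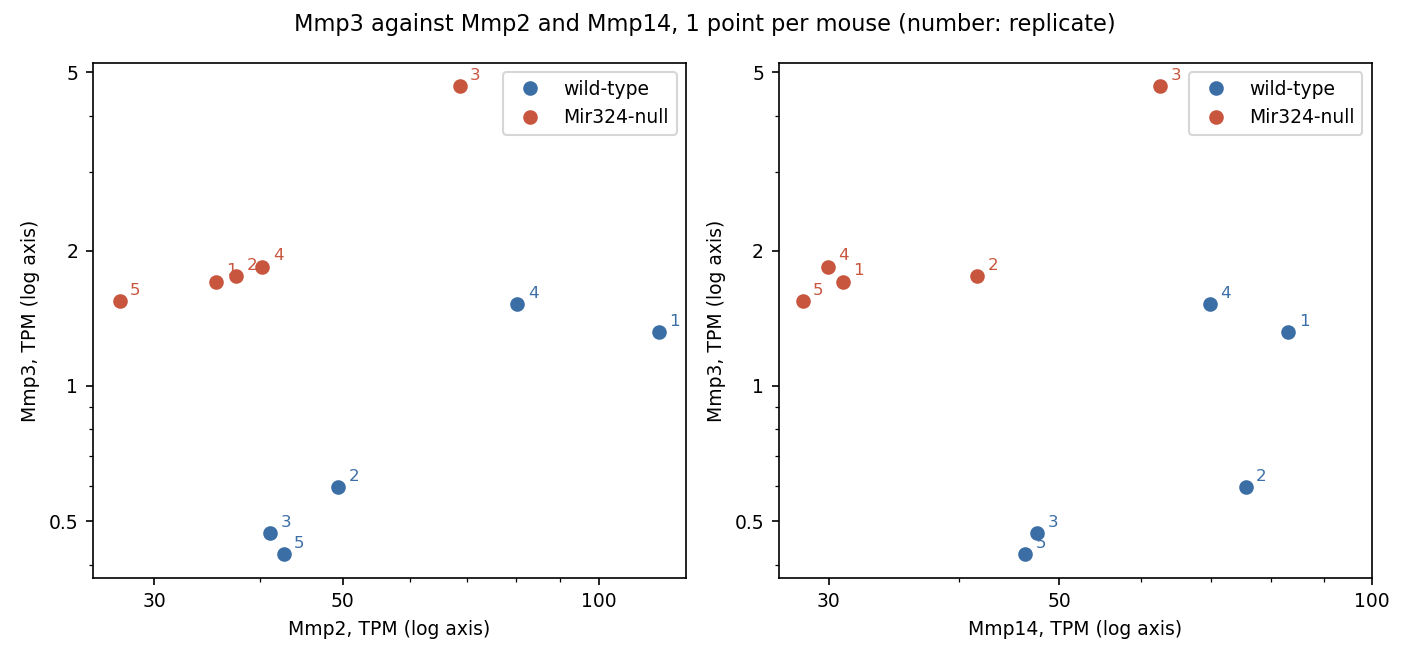
Mmp3 TPM (y axis, log scale) against Mmp2 (left) and Mmp14 (right) TPM (x axes, log scale), 1 point per mouse, numbered by replicate. The null mice form a separate band above the wild-type mice, with Mmp3 at 4.59% to 6.77% of Mmp2 against 0.990% to 1.90%.

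The sums per gene rest on different transcripts. Mmp3 and Adamts5 had 1 transcript each. For Htra1, the only protein-coding transcript held 24.9% of TPM in wild-type and 26.3% in null mice, and the rest lay in transcripts annotated as not coding, the largest with 41.5%. For Mmp2, coding transcripts held 83.7% in wild-type and 90.4% in null mice. Summed over protein-coding transcripts only, the log2 change of Mmp2 was -0.48 and that of Htra1 -0.39.

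Of 71 other listed genes of matrix breakdown, 48 were tested; 38 were lower and 10 higher in null mice, with a median change of -0.24, and none passed the adjusted threshold. An unadjusted p under 0.05 was reached by 13, all lower, beside 7.3% of all genes in that direction. By group, these were 4 of 10 MMPs, 3 of 8 ADAMTS genes, 1 of 5 inhibitors, 1 of 7 activators and clearance receptors, 4 of 9 substrates, and 0 of 3 HTRA and 0 of 6 ADAM genes. The 13 became 8 without wild-type mouse 1 and 8 without null mouse 5, and the median change became -0.16 and -0.14.

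After Mmp13, the smallest p among the lower genes belonged to Mmp16, a membrane-type MMP, and Col1a1, the type I collagen chain of bone and fibrous tissue. Mmp16 averaged 2.93 ± 0.432 against 1.59 ± 0.540 TPM (SD, n = 5 each; log2 change -0.62, limma unadjusted p = 0.0039, adjusted p = 0.297), and Col1a1 1522 ± 401 against 829 ± 339 TPM (SD, n = 5 each; -0.94, unadjusted p = 0.0050, adjusted p = 0.308). Genotypes did not overlap for 3 of the 48, Mmp13, Mmp16 and Sdc4, a cell surface proteoglycan (60.7 ± 27.2 against 34.3 ± 4.70 TPM, SD, n = 5 each), beside 1.06% of all genes lower without overlap; Sdc4 is named after its values were seen. The smallest p among the higher genes were those of Mmp19 (0.16, unadjusted p = 0.259), Htra4 (0.46, unadjusted p = 0.278) and Adam10 (0.11, unadjusted p = 0.285), none past a threshold by limma.

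The most abundant listed genes gave the scale of each group. Mmp9, the gelatinase of osteoclasts and neutrophils, averaged 729 TPM in wild-type mice against 556 TPM in null ones (log2 change -0.38, limma unadjusted p = 0.037, adjusted p = 0.399). The change of Mmp9 was -0.25 over protein-coding transcripts only (unadjusted p = 0.205) and -0.25 without wild-type mouse 2 (unadjusted p = 0.088). Adamts2, a procollagen processing enzyme, read 19.3 and 13.3 TPM (-0.53, unadjusted p = 0.0098), Adamts9 5.92 and 3.51 TPM (-0.62, unadjusted p = 0.025) and Adamts10 15.3 and 12.6 TPM (-0.17, unadjusted p = 0.569). The change of Adamts10 was 0.11 without wild-type mouse 1 and -0.79 over protein-coding transcripts only (unadjusted p = 0.010). Serpine2, an inhibitor of serine proteases, read 576 and 394 TPM (-0.50, unadjusted p = 0.035), and the MMP inhibitor gene Reck 11.7 and 9.31 TPM (-0.27, unadjusted p = 0.360). Among substrates, Cilp, a protein of the cartilage matrix, read 752 and 429 TPM (-0.68, unadjusted p = 0.026) and the small proteoglycan gene Dcn 968 and 781 TPM (-0.22, unadjusted p = 0.524). Without wild-type mouse 1 the change of Cilp was -0.42 and that of Dcn 0.043.

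**Figure D5:**
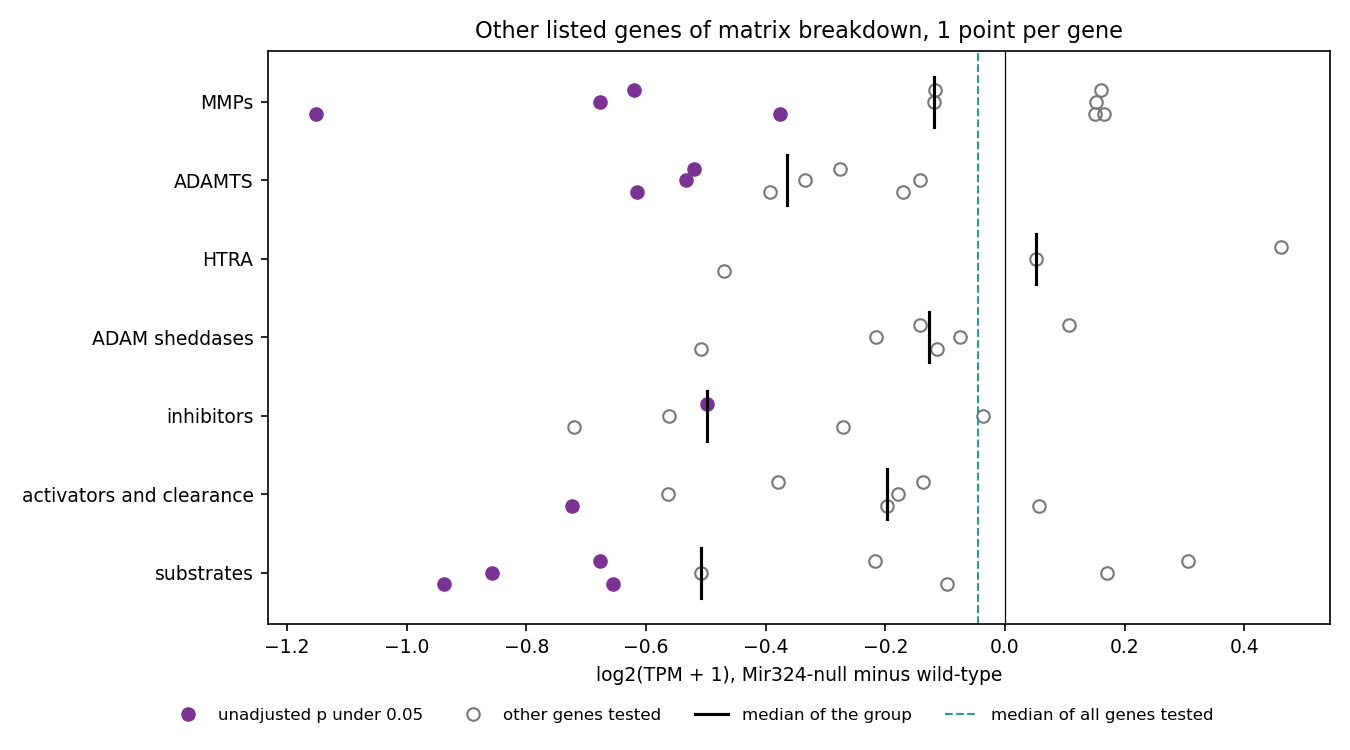
Change in log2(TPM + 1), Mir324-null minus wild-type (x axis), of the 48 tested genes on the wider list, by group; filled points have an unadjusted p under 0.05, black bars are group medians and the dashed line is the median of all genes tested. All 13 filled points lie below 0, the farthest being Mmp13 at -1.15.

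Marker lists of several cell types also differed in mean level between genotypes, to be read beside 60% of all genes with a lower mean, and 7.3% lower and 4.28% higher at an unadjusted p under 0.05. All 11 osteoblast and osteocyte markers had lower means in null mice, 9 with an unadjusted p under 0.05, and their summed level was 5423 to 12925 TPM in wild-type and 3094 to 6158 TPM in null mice. All 6 osteoclast markers tested had an unadjusted p under 0.05 and were lower (summed over 7 listed genes, 770 to 2236 against 380 to 1287 TPM). Of 8 chondrocyte markers tested, 7 were lower, 6 with an unadjusted p under 0.05 (summed over 11 listed genes, 374 to 1098 against 302 to 610 TPM); without wild-type mouse 1 the wild-type sums were 374 to 635 TPM, with a mean of 477 against 451 TPM. Erythroid markers were higher for 7 of 7, 4 with an unadjusted p under 0.05 (112400 to 198187 against 158602 to 262897 TPM). Of the 9 synovial and connective tissue fibroblast markers, 5 were higher and 4 lower, 1 of the lower with an unadjusted p under 0.05 (1652 to 5215 against 1419 to 2488 TPM; up to 3934 TPM in wild-type mice without mouse 1). No macrophage or neutrophil marker had an unadjusted p under 0.05 by limma: the 6 macrophage markers summed to 595 to 885 against 582 to 709 TPM, and the 7 neutrophil markers to 55632 to 109003 against 54585 to 111430 TPM. Adipocyte markers were lower for 5 of 5 tested, 4 with an unadjusted p under 0.05 (181 to 312 against 133 to 255 TPM), endothelial markers for 5 of 5, 2 under 0.05 (72.9 to 90.3 against 52.2 to 79.8 TPM) and smooth muscle and pericyte markers for 3 of 4, 1 under 0.05 (39.9 to 64.9 against 24.2 to 46.7 TPM), while the 2 skeletal muscle markers tested were higher, 0 under 0.05 (13.3 to 16.1 against 14.9 to 51.4 TPM over 6 listed genes). No marker passed the adjusted threshold by limma, and the part of these cell types in the changes of the protease and inhibitor genes was not tested.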

How the data were processed

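Total RNA of 10 knee cartilage caps was measured, 1 library per mouse. The authors deposited kallisto TPM values per transcript; kallisto and DESeq2 are named without versions in the submitters' processing notes, which also list the build GRCh38, a human build name, although the transcripts are mouse Ensembl ones. TPM carries no counts, so depth is unknown and precision rests on the spread between mice. Of 116912 transcripts, 115494 matched GENCODE M21 (GRCm38) without version; the 1418 others held at most 0.296% of TPM. TPM was summed per gene, and log2(TPM + 1) was compared for 13846 genes whose mean reached 1 TPM, null minus wild-type, with limma 3.58.1 in R 4.3.3 (trend, two-sided, Benjamini-Hochberg adjustment over all genes, 5 mice per genotype, no covariate). Single genes were also compared by exact permutation over 252 splits. The limma fit was tested on simulated data in which genes varied independently, and the exact permutation on a fixed set of values. Python 3.11.15 served the remaining steps, with numpy 2.4.6 and pandas 2.3.3.

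The 10 genes and the gene lists were chosen with earlier results of these data known. Beyond the 10, genes named were the 3 with the smallest p in each direction and the 3 most abundant in the MMP, ADAMTS, inhibitor and substrate groups; Sdc4 and the cluster neighbours of Mmp3 were named after their values were seen, and some items are not reported here. Alternatives were another pseudocount (0.1 TPM), filters (mean of 5 TPM, none), median ratio scaling, quantile normalization, removal of haemoglobin genes, protein-coding transcripts only, limma without trend, a replicate block, and leaving out each mouse.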

Additional observations from a re-analysis of the deposited data

Results flagged for a closer look

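One value lay far from the others of its group. Mmp3 in null mouse 3 read 4.65 TPM, while the other 4 null mice read 1.54 to 1.84 TPM; on the log2(TPM + 1) scale its gap to the nearest mouse was 0.860 of the group's range, above Dixon's critical value of 0.71 for 5 samples. Chance alone flags about 1 in 20 groups, and 22 groups were examined. The same mouse had the highest level among null mice of Mmp2, Mmp14, Htra1, Timp1 and Timp2, and without it the change of Mmp3 was 0.58 instead of 0.79.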

How the results depend on the processing

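The direction of change of each of the 10 genes was kept under all alternatives in which it was tested. Mmp14 had an unadjusted p under 0.05 in each of them, and Mmp3 in each that tested it. The count of the 10 genes at an unadjusted p under 0.05 was 2 as reported. With the filter at a mean of 5 TPM, which leaves Mmp3 untested, it was 1. It was 3 with no filter, median ratio scaling, protein-coding transcripts only or limma without trend. In these Adamts1 was the gene added (limma unadjusted p = 0.049, 0.036, 0.041 and 0.030). The count ran from 2 to 7 when 1 mouse was left out. It was 7 without wild-type mouse 3 and 4 without null mouse 3. Genes called at an adjusted p under 0.05 numbered 0 as reported and 0 to 1 when a mouse was left out, with 1 gene called without wild-type mouse 3, wild-type mouse 4 or null mouse 1. Genes at an unadjusted p under 0.05 numbered 1603 as reported and 1110 to 1928 when a mouse was left out. Of these 1603, 63.1% were lower in null mice; the share was 50.2% after median ratio scaling, 51.2% after quantile normalization and 32.5% without haemoglobin genes, and the median change of all genes moved from -0.05 to 0.03 without haemoglobin genes. Without wild-type mouse 1, 3 other named genes changed direction; over the fits that left out 1 mouse, the change of Mmp8 ran from -0.073 to 0.37, that of Adamts10 from -0.29 to 0.11 and that of Dcn from -0.44 to 0.043. The count of other listed genes at an unadjusted p under 0.05, 13 as reported, ran from 8 to 16 when a mouse was left out, and their median change from -0.36 to -0.14, against -0.24. The difference in the inhibitor to metalloprotease ratio, 0.478, ran from 0.394 to 0.649, and 5 to 6 of the 9 neighbours in the order of levels differed. The median r over the 45 pairs was 0.806, and 0.707 without the 2 mice farthest from the median; 29 pairs passed after median ratio scaling, against 33, and 35 within genotypes, a setting added after the data had been seen. No pairing by replicate number was seen: deviations of same-numbered mice correlated at -0.144 to 0.056, and 0 of 5 mice correlated best with their own number. With 5 mice per genotype and no litter or batch given, this cannot decide whether same-numbered mice shared one. With the replicate number as a block, 1168 genes had an unadjusted p under 0.05, 0 passed the adjusted threshold, and 2 of the 10 genes had an unadjusted p under 0.05. Depth is unknown, so what counting error adds at the level of Mmp3 and Adamts4 cannot be stated, and with 5 mice per genotype the exact permutation p cannot go below 0.00794.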
